A study of Mus musculus with 2 samples.

Results

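The chromosomal passenger complex is represented here by its 4 subunits, the kinase Aurkb (Aurora B), the scaffold Incenp, and the targeting subunits Birc5 (survivin) and Cdca8 (borealin). These genes were chosen with earlier results of these data known. Their probes were then found by gene symbol in the authors' deposited table, without measured values. This gave 4 genes of the 24278 genes with a symbol on the array. It gave 8 of the array's 55681 probes: 1 for Aurkb, 2 for Incenp, 3 for Birc5 and 2 for Cdca8. Of these, 7 probes of 3 genes were bright enough to be tested, among 37485 tested probes. The single Aurkb probe was not. RNA came from isolated pancreatic islets of C57BL/6J mice aged 8 weeks, and the labels name no transgene or deletion. One group had 60% of the pancreas removed 3 days earlier (pancreatectomy) and the other had a sham operation 3 days earlier. Each group was measured on 4 Cy3 expression arrays, named replicates 1 to 4 here by their place on the slide, and the 4 values of a group are always given in that order. Separate animals or islet preparations are not named for the arrays of a group, so p-values here cover array-to-array spread that could be purely technical.

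In dividing cells Incenp holds the complex together: its amino-terminal part binds Birc5 and Cdca8, which bring the complex to centromeres, and its carboxy-terminal part binds and activates Aurkb. The complex sits at inner centromeres early in mitosis, where Aurkb releases faulty attachments between kinetochores and microtubules, and then moves to the central spindle, where it acts in cytokinesis. Birc5 also belongs by sequence to the inhibitor of apoptosis (IAP) family. Transcripts of Aurkb, Birc5 and Cdca8 are known to accumulate in G2 and M phase, and few islet cells of adult mice divide at any time.

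Promoter sequence in the RefSeq table used here (GRCm38.p6) was found for Birc5 and Cdca8, the genes whose probes passed the test below, and is shown because they rose together. The stretch is the 250 bases before the annotated start, 5′ to 3′ on the strand of the gene. Capitals mark ATTGG, the reverse complement of CCAAT.
Birc5 promoter, chr11:117848987-117849236, plus strand: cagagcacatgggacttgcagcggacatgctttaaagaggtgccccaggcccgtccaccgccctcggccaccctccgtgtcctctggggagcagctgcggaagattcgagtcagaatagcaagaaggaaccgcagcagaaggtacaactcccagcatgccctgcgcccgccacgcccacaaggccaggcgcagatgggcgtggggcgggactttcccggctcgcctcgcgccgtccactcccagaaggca
Cdca8 promoter, chr4:124936918-124937167, minus strand: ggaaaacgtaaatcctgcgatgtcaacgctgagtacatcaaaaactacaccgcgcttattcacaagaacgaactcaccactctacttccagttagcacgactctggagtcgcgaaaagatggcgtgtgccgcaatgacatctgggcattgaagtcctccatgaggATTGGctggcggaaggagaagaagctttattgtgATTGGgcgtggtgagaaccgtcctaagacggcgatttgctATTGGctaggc
Both stretches were searched on both strands for the CCAAT box and the E2F site GGCGGGAA. Cdca8 had CCAAT on the opposite strand at 3 places, at positions -85 to -81, -51 to -47 and -11 to -7 from its start, and no GGCGGGAA. In the Birc5 stretch neither was found, which says only that these letters are not in this window. Over the 250 bases before each of 32851 starts, CCAAT was found in 33.8% and GGCGGGAA in 1.86%, so that a CCAAT match is common. A match is a description of the letters and not a binding site.

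The arrays shared most of their signal, with r from 0.960 to 0.992 across probes within a group and from 0.949 to 0.987 between groups. Sham replicate 3 was the dimmest, with a 75th percentile of the processed signal of 177 against 279 to 653 on the other 7 arrays. Of its probes 48.1% were well above background, against 59.0% to 71.4% elsewhere. Pancreatectomy replicate 2 was the next dimmest by both measures. The islet genes Ins1, Ins2, Gcg, Sst, Iapp and Chga were well above background on all 8 arrays. Liver transcripts stood out on sham replicate 4 and pancreatectomy replicates 1 and 4, and B and plasma cell and gut transcripts on pancreatectomy replicate 3. On the slide, sham arrays lay in columns 1 and 2 and pancreatectomy arrays in the others, and an effect of column cannot be told apart from that of the operation. Values below are log2 processed signals scaled to each array's 75th percentile, changes are pancreatectomy minus sham, and the adjusted p is from limma with Benjamini-Hochberg adjustment over all tested probes and a threshold of 0.05.

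Birc5 and Cdca8 transcripts rose after pancreatectomy on all 5 of their probes, by 7.38-fold to 16.2-fold. Both ends of this range come from probes not well above background on every sham array. Those probes did not pass with another background correction (normexp), which here adds 50 to every signal and so shrinks the changes of dim probes. The 2 Incenp probes were 2.68-fold and 2.75-fold higher and did not pass the test. Aurkb was not well above background on any sham array and was on 3 of 4 pancreatectomy arrays, which gives only a lower bound of 1.93-fold. Over all tested probes 0.520% rose and 0.0827% fell, against 5 of the 7 complex probes rising and 0 falling. The complex was chosen with earlier results of these data known, so these shares are a description only. All 7 tested complex probes had every pancreatectomy array above every sham array, a pattern found without a test in 2.89% of all tested probes. Each of the 7 tested probes was well above background on all 4 pancreatectomy arrays and on at least 2 of the 4 sham arrays. Their median change was 3.16, and that of all tested probes was -0.043. In bulk islet RNA, more cells carrying a transcript and more transcript per cell cannot be told apart.

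**Figure D1:**
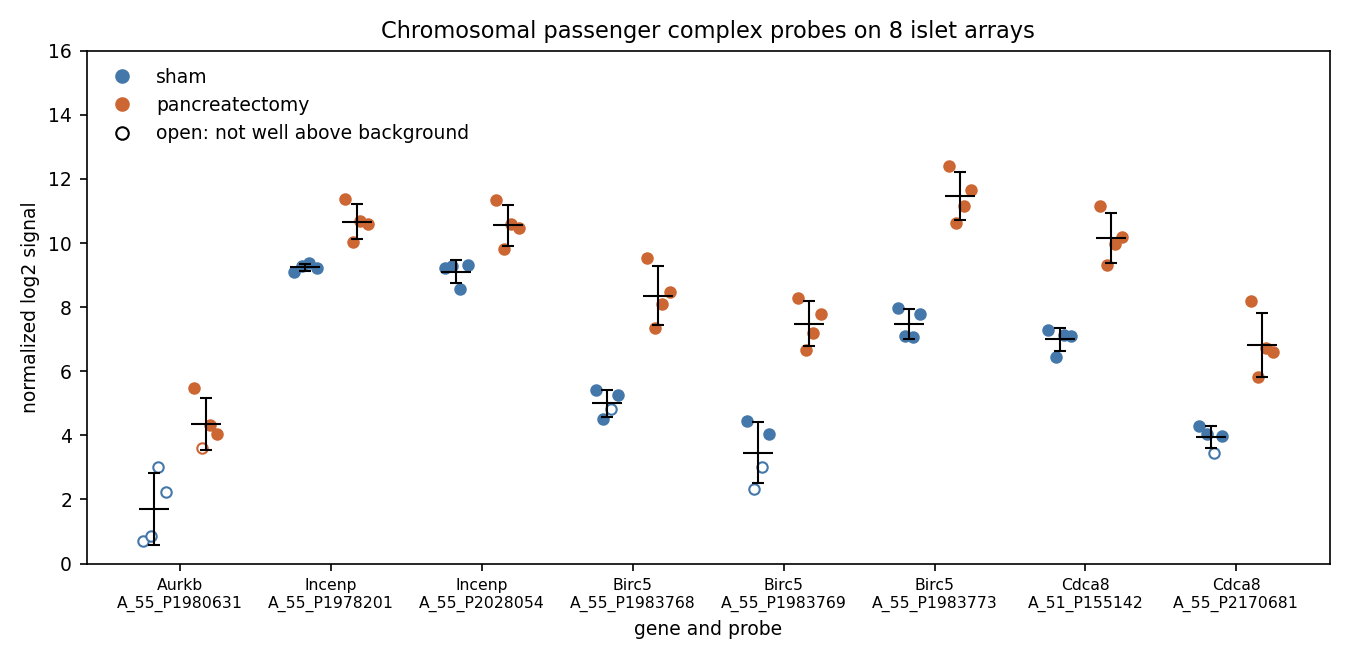
Normalized log2 signal (vertical axis) of the 8 probes of the complex on 4 sham and 4 pancreatectomy arrays, with the mean and SD of each group; open points were not well above background. On each tested probe all pancreatectomy points lie above all sham points, and the mean sham level of Birc5 A_55_P1983773 was 7.48 against 11.5 after pancreatectomy. Heights of different probes are not comparable.

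Aurkb, the catalytic kinase, has 1 probe, A_55_P1980631, at mm9 chr11:68865105-68865164 on the plus strand. It read 0.70, 0.86, 3.03 and 2.23 on the sham arrays and 5.47, 3.60, 4.33 and 4.04 on the pancreatectomy arrays. The processed signal behind these levels was 2.08 to 7.09 on the sham arrays and 7.80 to 65.3 on the pancreatectomy arrays. Every pancreatectomy value was above every sham value, but all 4 sham values and that of pancreatectomy replicate 2 were not well above background. Against the lowest signal well above background on each sham array, or the probe's own where higher, the mean over the 4 pancreatectomy arrays was at least 1.93-fold higher. That mean takes pancreatectomy replicate 2 at its own value, and the probe was left out of the test. The absence of a call for Aurkb therefore rests on a probe near the detection limit, and its change cannot be ranked among those of the other subunits.

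Incenp, the scaffold, has probes A_55_P1978201 at mm9 chr19:9946878-9946937 and A_55_P2028054 at mm9 chr19:9946893-9946952, both on the minus strand. They share 45 of their 60 bases and so are close to repeat readings of 1 stretch. Both were well above background on all 8 arrays. A_55_P1978201 read 9.11, 9.28, 9.37 and 9.24 on the sham arrays and 11.38, 10.03, 10.68 and 10.58 on the pancreatectomy arrays. The groups did not overlap, with 0.66 between the highest sham and the lowest pancreatectomy array. Its change was 1.42 ± 0.26 (SE), with a 95% interval of 0.83 to 2.01 and an adjusted p of 0.0622 from limma. A_55_P2028054 read 9.23, 9.28, 8.57 and 9.33 on the sham arrays and 11.36, 9.80, 10.60 and 10.47 on the pancreatectomy arrays. Sham replicate 3, the dimmest array, was low on this probe but not on the overlapping one. The change was 1.46 ± 0.32 (SE) with an interval of 0.72 to 2.19 and an adjusted p of 0.130 from limma. With 1 array left out, A_55_P1978201 passed only without pancreatectomy replicate 2, at a change of 1.63 and an adjusted p of 0.0266 from limma. In the other 7 such fits it did not pass, with changes of 1.18 to 1.46 and adjusted p-values of 0.0727 to 0.205 from limma. A_55_P1978201 also passed with a filter on all arrays (limma's adjusted p 0.0450), array weights (0.00651) and a trended variance (0.0294). It did not pass in the remaining alternatives. A_55_P2028054 passed only with array weights (limma's adjusted p 0.0156).

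Birc5, which docks the complex at centromeres by binding phosphorylated histone H3, has 3 probes on the plus strand of chromosome 11 over 5866 bases from first to last start. A_55_P1983773, the brightest, lies at mm9 chr11:117716978-117717037. It read 7.97, 7.10, 7.08 and 7.80 on the sham arrays and 12.41, 10.63, 11.15 and 11.66 on the pancreatectomy arrays. The lowest pancreatectomy array was thus well clear of the highest sham array. The change was 3.98 ± 0.38 (SE), or 15.8-fold with a 95% interval of 8.62-fold to 28.9-fold, and limma's adjusted p was 0.00806. Among all tested probes it ranked 10th by p and 18th by size of rise. This is the one complex probe that kept its call with each array left out in turn, with changes of 3.66 to 4.26.

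A_55_P1983769, at mm9 chr11:117714057-117714116, was dim in sham islets. It read 4.45, 2.33, 3.02 and 4.05 on the sham arrays, where replicates 2 and 3 were not well above background, and 8.28, 6.68, 7.18 and 7.79 on the pancreatectomy arrays. Its change was 4.02 ± 0.50 (SE), or 16.2-fold, with an adjusted p of 0.0141 from limma. The groups were again apart, although the sham spread of 0.96 (SD, n = 4) was the widest of the 7 tested probes. A_55_P1983768, at mm9 chr11:117711112-117711171, is the one the array design assigns to a different transcript variant from the other Birc5 probes. It read 5.41, 4.50, 4.83 and 5.26 on the sham arrays and 9.53, 7.34, 8.10 and 8.47 on the pancreatectomy arrays. Its change was 3.36 ± 0.43 (SE), or 10.3-fold with a 95% interval of 5.23-fold to 20.1-fold, and limma's adjusted p was 0.0145. Without pancreatectomy replicate 4 the dimmer pair lost their calls, A_55_P1983769 at 3.92 (limma's adjusted p 0.0627) and A_55_P1983768 at 3.32 (0.0644), and so did A_55_P1983768 without sham replicate 2, at 3.19 (0.0626). With normexp, a model-based background correction run here with 50 added to every signal, their changes were 1.74 and 2.12 and did not pass either. An added constant shrinks log2 changes most where signal is low. Processed sham signals were 3.33 to 27.9 for A_55_P1983769 and 11.7 to 57.8 for A_55_P1983768.
All 3 Birc5 probes therefore rose, whichever stretch of the transcript they read. Exon annotation on mm9 was not used here, so no probe is placed in an exon or UTR.

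Cdca8, which binds Birc5 and Incenp and contacts nucleosomes, has 2 probes on the minus strand of chromosome 4 whose starts lie 3436 bases apart. A_51_P155142, at mm9 chr4:124595809-124595868, read 7.28, 6.45, 7.13 and 7.11 on the sham arrays and 11.17, 9.31, 9.96 and 10.18 on the pancreatectomy arrays. The groups did not overlap. Its change was 3.16 ± 0.37 (SE), or 8.95-fold, with a lower 95% bound of 2.32 on the log2 scale and an adjusted p of 0.0103 from limma. Without pancreatectomy replicate 4 the change was 3.15 and limma's adjusted p 0.0522, which does not pass. A_55_P2170681, at mm9 chr4:124599245-124599304, was dimmer. It read 4.30, 4.04, 3.46 and 3.98 on the sham arrays, where replicate 3 was not well above background, and 8.20, 5.81, 6.71 and 6.61 on the pancreatectomy arrays. Its change was 2.88 ± 0.45 (SE), or 7.38-fold, with an adjusted p of 0.0330 from limma. The rise was read on both Cdca8 probes. Of 22 alternatives, which include the authors' deposited averages with no test, 15 lost the call of the dimmer probe. These include the slide row as a block (limma's adjusted p 0.0593), normexp (a change of 1.36) and the removal of any 1 array other than pancreatectomy replicates 1 or 2 (2.72 to 3.00). Both slide rows held both groups, and within rows 1 and 2, each 2 arrays against 2, the changes were 3.99 and 3.97 for Birc5 A_55_P1983773, 3.37 and 2.95 for Cdca8 A_51_P155142 and 1.51 and 1.33 for Incenp A_55_P1978201.

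**Figure D2:**
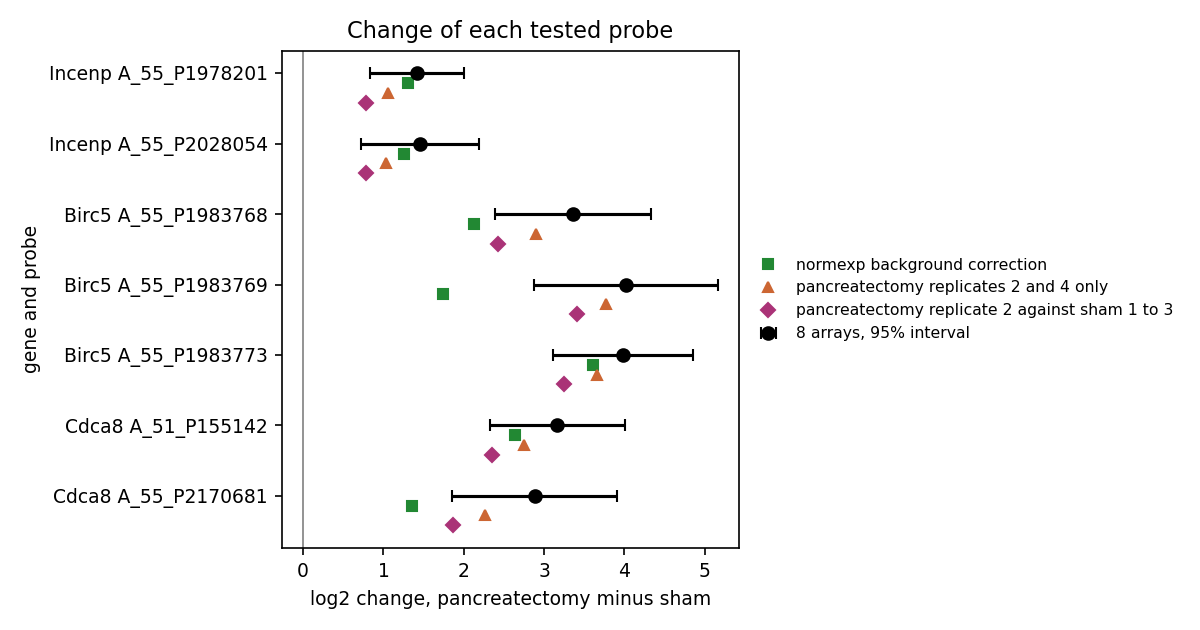
Log2 change after pancreatectomy (horizontal axis) of each tested complex probe with its 95% interval from limma (black), and as coloured points its change with normexp, with pancreatectomy replicates 2 and 4 only against all sham arrays, and with pancreatectomy replicate 2 alone against sham replicates 1 to 3. In black the Birc5 and Cdca8 probes lie between 2.88 and 4.02 and the Incenp probes at 1.42 and 1.46, and every coloured point is above 0.

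How much the subunits differed in their change was tested on the difference between their brightest probes within each array, with an exact two-sided permutation test over arrays. Levels of different probes are not comparable, so this difference was centred on its sham mean. Incenp A_55_P1978201 had a smaller measured change than Birc5 A_55_P1983773, with a mean difference of -2.56. The values were -2.80, -2.37, -2.24 and -2.84 on the pancreatectomy arrays against -0.62 to 0.53 on the sham arrays. Incenp against Cdca8 gave -1.74, with -2.05 to -1.53 on the pancreatectomy arrays against -0.43 to 0.57 on the sham arrays. Birc5 against Cdca8 gave 0.82, with 0.75, 0.83, 0.70 and 0.99 on the pancreatectomy arrays against -0.54 to 0.20 on the sham arrays. In each of these pairs the groups did not overlap, and the exact permutation p was 0.0286, the smallest that 4 against 4 arrays allow. Adjusted over the 8 comparisons made between member probes the p was 0.0571, which misses 0.05, and with normexp, where more of the 8 comparisons reached the smallest p, it was 0.0381. By these brightest probes the order Birc5, Cdca8, Incenp was the same with quantile scaling and with normexp. The exact permutation p of each of these pairs was 0.0286 with normexp too. Only its adjustment changed, so whether the order passes depends on the other probe pairs adjusted with it. The order also depends on the probe under normexp, whose added constant shrinks the changes of dim probes. There Birc5 A_55_P1983768 (2.12) and A_55_P1983769 (1.74) changed less than Cdca8 A_51_P155142 (2.64). In the main fit they changed more (3.36 and 4.02 against 3.16).
Between probes of 1 gene, A_55_P1983768 of Birc5 minus A_55_P1983773 gave -0.62, again with an exact permutation p of 0.0286 and an adjusted p of 0.0571. The 2 Incenp probes differed by -0.037 with an exact permutation p of 1, and the 2 Cdca8 probes by 0.28 with an exact permutation p of 0.429. Those last p-values do not show that the probes changed alike.

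The height of the rise varied from array to array, for Birc5 and Cdca8 alike. Over the pancreatectomy arrays the SD was 0.76 for Birc5 A_55_P1983773 and 0.77 for Cdca8 A_51_P155142, while that of their difference was 0.12. Replicate 1 was the highest pancreatectomy array and replicate 2 the lowest on all 7 tested complex probes. As the median over the 7 tested probes, the difference from the sham mean was 4.25, 2.32, 2.97 and 3.19 on the pancreatectomy arrays and -0.41 to 0.36 on the sham arrays. Every pancreatectomy array was thus above the sham range, by differing amounts.

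Markers of other cells also varied among the same arrays. The 10 fibroblast and stellate cell markers were, on average, 3.05, 0.0050, 2.39 and 0.35 above the sham mean on the pancreatectomy arrays, against -0.23 to 0.31 on the sham arrays, and the log2 of their summed signal was 13.1 to 13.8 on sham and 13.5 to 17.0 on pancreatectomy arrays. The 10 macrophage markers stood at 1.71, -0.46, 1.30 and -0.056, against -0.20 to 0.21. The log2 of their summed signal was 14.5 to 15.2 on sham and 14.4 to 14.9 on pancreatectomy arrays, so it was not higher after pancreatectomy. By the mean over markers, the fibroblast list was above the sham range on replicate 4, and the macrophage list was below it on replicate 2. With pancreatectomy replicates 2 and 4 alone against the 4 sham arrays, a comparison added after the values were seen, Birc5 A_55_P1983773 was 3.66 higher with an adjusted p of 0.0557 from limma, and Cdca8 A_51_P155142 was 2.75 higher with an adjusted p of 0.0619. The 7 liver markers were 5.62 and 4.63 above the sham mean on pancreatectomy replicates 1 and 4 and 5.41 above it on sham replicate 4. The 5 detected of 7 B and plasma cell markers stood at 6.04 on pancreatectomy replicate 3 and at most 0.41 elsewhere, with Ms4a1 and Pou2af1 too dim to be kept. The 6 neutrophil markers were 0.15 to 1.75 above the sham mean on the pancreatectomy arrays and at most 0.47 on sham arrays. The log2 of their summed signal overlapped, at 13.1 to 14.2 on sham and 13.6 to 14.2 on pancreatectomy arrays. The 8 islet endocrine markers ranged from -0.37 to 0.62 on sham and from -0.50 to 0.21 on pancreatectomy arrays. Of 86 tested markers of all cell types listed, 0 rose and 0 fell by limma, with 10 higher and 2 lower at unadjusted p under 0.05, against 11.0% of all tested probes in either direction. The part of other cell types in the rise of Birc5 and Cdca8 was not tested further.

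**Figure D3:**
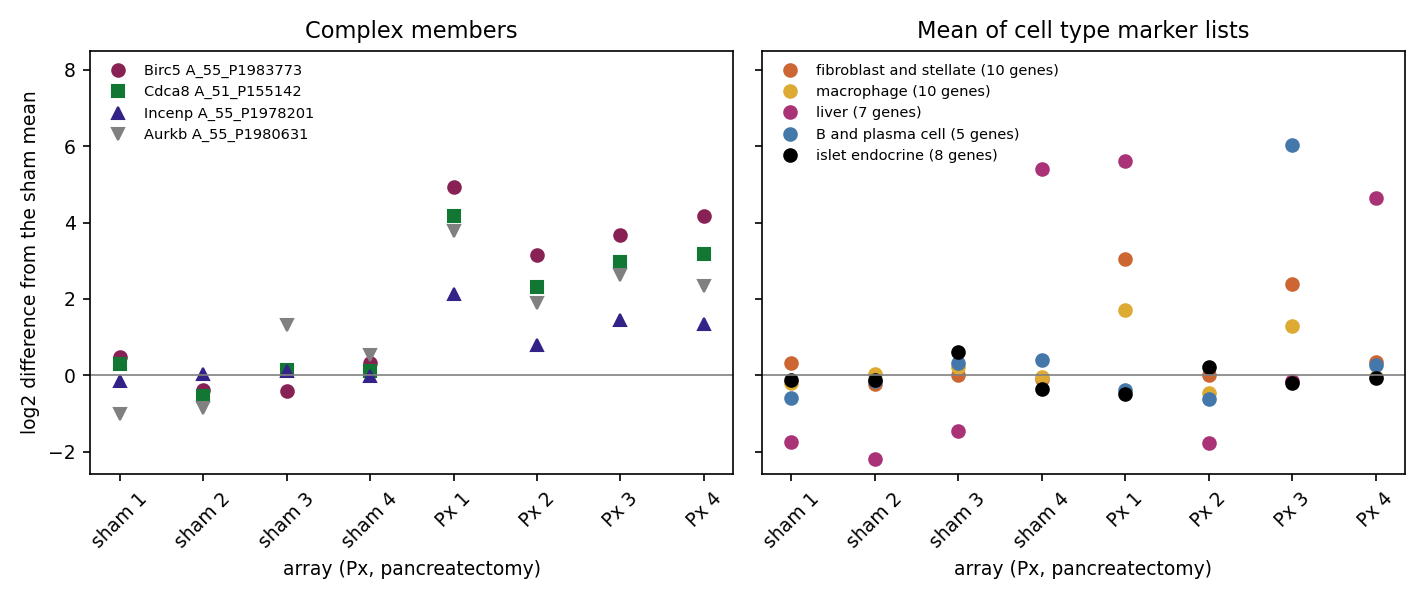
Log2 difference from the sham mean (vertical axis) on each of the 8 arrays, for the brightest probe of each complex gene (left) and for the mean of 5 marker lists (right). Birc5, Cdca8 and Incenp lie above 0 on every pancreatectomy array, and the Aurkb points of the sham arrays and of replicate 2 were not well above background. Fibroblast markers are at 3.05 and 2.39 on replicates 1 and 3 and at 0.0050 and 0.35 on replicates 2 and 4.

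Genes most like each subunit were named by the root mean square (RMS) difference of log2 signals over the 8 arrays, each gene centred on its own mean, among 16314 genes. This is a description with no test. Nearest to Birc5 A_55_P1983773 were Mki67 (the Ki-67 antigen of dividing cells) at 0.20, Tpx2 (spindle assembly) at 0.22, Ncaph (a condensin subunit) at 0.23, Aunip at 0.23 and Cdca5 (sororin, which protects sister cohesion) at 0.24. By these probes, which for Mki67 and Tpx2 are not the brightest of the gene, their own changes were 3.55 to 3.97. Nearest to Cdca8 A_51_P155142 were Ccna2 (cyclin A) at 0.11 and Ube2c (a ubiquitin-conjugating enzyme of the anaphase-promoting complex) at 0.15, followed by Birc5 itself, read by A_55_P1983768, at 0.19. Incenp A_55_P1978201 was nearest to genes of smaller change: Fbxo5 (an inhibitor of the anaphase-promoting complex) at 0.15, Gas2l3 at 0.17, Tacc3 (a spindle protein) at 0.19, Ezh2 (a histone methyltransferase) at 0.20 and Racgap1 (a centralspindlin subunit) at 0.21, with changes of 1.14 to 1.53. The measure takes in the size of the change, so Cdca8 was only 43rd from Birc5 and Incenp was 154th. Counted from Incenp, Cdca8 was 5990th and Birc5 14556th of the 16314 genes.

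Genes that recruit or regulate the complex rose in part: 5 of 19 tested rose, 0 fell and 14 did not pass, with a median of 0.19. Over all tested probes 0.520% rose and 0.0827% fell, and the same shares apply to each list below. Cdk1 (the mitotic cyclin-dependent kinase, 4.43 ± 0.73 (SE), limma's adjusted p 0.0393), Bub1 (the kinase whose histone mark attracts shugoshins, 4.29 ± 0.44) and Ccnb1 (cyclin B1, the Cdk1 partner, 3.73 ± 0.35) had the largest measured rises, but Bub1 was well above background on 2 and Cdk1 on 3 of the 4 sham arrays. Plk1 (3.72) and Kif20a (2.49), which carries the complex to the central spindle, also passed. Haspin, the kinase that makes the histone H3 mark read by Birc5, was 2.26 higher with an adjusted p of 0.0605 from limma, and the shugoshin Sgo1 was 1.63 higher with an adjusted p of 0.0522; both were singled out after their values were seen. Cbx5 (0.043) and Nup62 (0.072) had the smallest differences, and Sgo2a and Ttk were too dim to be kept. Probes of Cdk1 disagreed, since another read 3.67 and passed while the remaining one read -0.26. The 2 other Ccnb1 probes read 2.46 and 1.91 and did not pass (limma's adjusted p 0.0940 and 0.131). With no scaling between arrays 2 of these genes rose, and with normexp background correction 3.

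Of 16 tested substrates of Aurora B, 7 rose, 0 fell and 9 did not pass, with a median of 2.19 (1.00 with normexp), beside 0.520% and 0.0827% of all tested probes. Of these, Knl1 was well above background on 0 sham arrays and entered the test through the pancreatectomy arrays alone. The largest measured rises were those of Ska1 (outer kinetochore, 4.87 ± 0.51 (SE), limma's adjusted p 0.00881), Cenpa (the centromeric histone, 3.57 ± 0.48) and Kif23 (the centralspindlin kinesin, 2.94 ± 0.48). Ska1 and Kif23 were well above background on 2 and Cenpa on 3 of the 4 sham arrays. The kinetochore subunits Nsl1 (2.47), Dsn1 (1.83) and Ska3 (1.67) and the microtubule destabilizer Stmn1 (2.29) also passed. Mis12, of the same kinetochore complex as Nsl1 and Dsn1, differed by 0.070, and Chmp4c, of the abscission checkpoint, by -0.51, and neither passed. The count of risen substrates fell to 5 with median or quantile scaling, to 1 with no scaling or normexp and to 2 with no filter.

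The lists of opposing phosphatases and of Aurora A each held 1 gene that rose. Of 15 genes of phosphatases that oppose Aurora B and of their partners and regulators, 1 rose and 0 fell, with a median of -0.10. The one that rose was Mki67 (3.91 ± 0.35 (SE), limma's adjusted p 0.00806), a binding partner of protein phosphatase 1 and no phosphatase itself. The catalytic subunit Ppp1cc differed by -0.024 and the regulator Ppp1r7 by 0.020. The brightest probe of Cdca2, another partner of that phosphatase, read -0.12, but a second probe rose by 2.60 with an adjusted p of 0.0157 from limma. Of 8 genes of the sister kinase Aurora A and its cofactors, 1 rose, Aurka itself (2.13 ± 0.34 (SE), limma's adjusted p 0.0376), while 0 fell and the median was 0.24. Aurka lost that call in each of the 5 scaling, background and filter alternatives run on these lists. The germline paralog Aurkc differed by -0.026 and the scaffold Nedd9 by 0.042. The brightest probe of Tpx2, the Aurora A activator, read -0.24, against 3.79 and an adjusted p of 0.0105 from limma on a second probe.

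The IAP family, to which Birc5 belongs, was looked at in the same way. Of 12 IAP family genes and antagonists 11 were tested, 0 rose and 0 fell by limma (also 0 at unadjusted p under 0.05, against 11.0% of all tested probes). With 0.520% and 0.0827% called over all tested probes, no call among 11 is near the background and is no result about the family. Their changes lay between -0.22 and 0.33 with a median of -0.022. Birc7 differed by 0.018, Birc2 by -0.022, Xiap by 0.024, Birc3 by -0.081 and Birc6 by 0.33, against 3.36 to 4.02 on the 3 Birc5 probes; these differences between genes were not tested. The 14 genes of the abscission checkpoint and ESCRT-III, which cuts the last bridge between daughter cells, gave 0 risen and 0 fallen by limma, with 2 lower at unadjusted p under 0.05 and a median of -0.081, counts likewise near the background. Tsg101 differed by 0.012, Chmp2a by -0.031 and Cep55, which recruits ESCRT to the midbody, by 0.22.

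**Figure D4:**
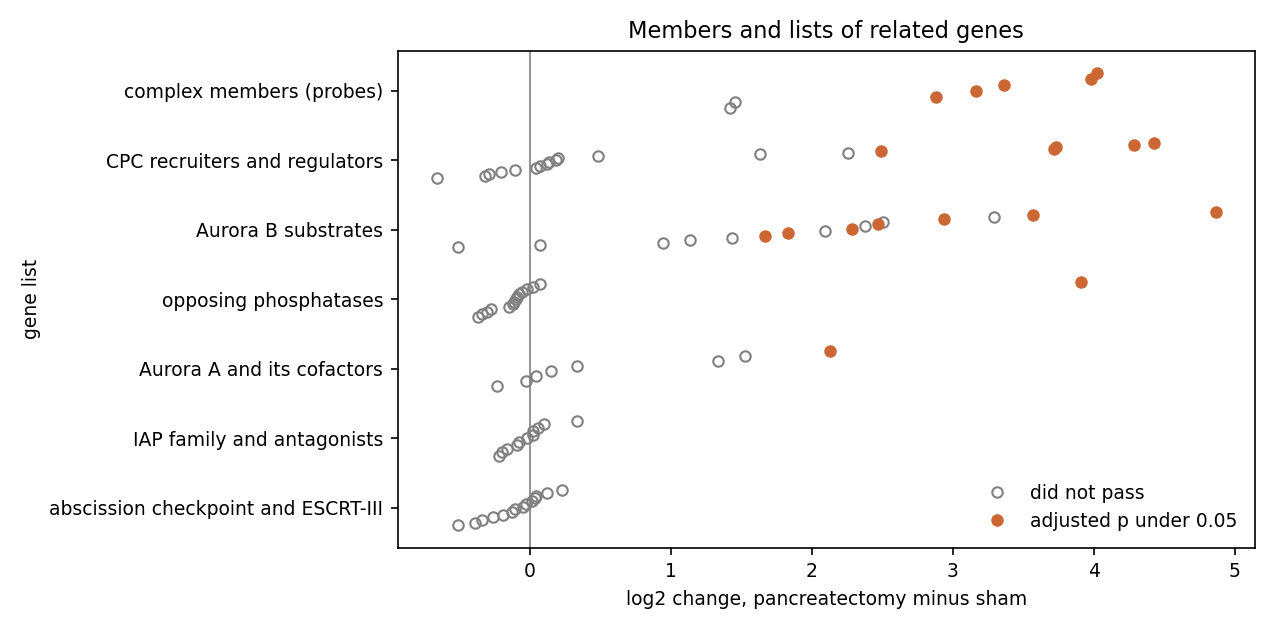
Log2 change after pancreatectomy (axis in log2 units) of each tested gene in the 6 related lists and of the complex probes, each point 1 gene by its brightest tested probe or 1 complex probe, filled where the adjusted p was under 0.05. Aurora B substrates have a median of 2.19 (1.00 with normexp, not drawn) and range from -0.51 to 4.87, while the IAP family lies between -0.22 and 0.33.

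The authors' deposited table, which holds 1 average per group, gave pancreatectomy minus sham differences of 3.37, 4.03 and 3.99 for the Birc5 probes A_55_P1983768, A_55_P1983769 and A_55_P1983773. In the authors' deposited table the Cdca8 probes differed by 3.17 and 2.89 and the Incenp probes by 1.43 and 1.47. These are the same arrays processed by the authors and so are no independent reading.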

How the data were processed

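Total RNA was labelled with Cy3 and hybridised to 8 arrays of 1 slide. Per the file headers, the deposited array files hold linear spot intensity values that Feature Extraction 10.7.3.1 had background-subtracted and detrended (the submitters' processing notes name version 9.1), with no scaling between arrays. The authors' deposited table holds 1 log2 average per group after a 75th percentile shift in GeneSpring GX 12.5, per the file header; it served for gene symbols and as a side value. The sham label lists 1 slide position where the files hold another; the 4 arrays filed under it were used.

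Here log2 of the processed signal was taken minus each array's 75th percentile, with the mean percentile added back. Control and outlier spots (113 to 228 per array) were left out, no spot was saturated, and replicate spots were averaged. Probes were kept if well above background on at least 4 of 8 arrays with at least 3 values per group. Each kept probe was tested with limma 3.58.1 in R 4.3.3 (lmFit, eBayes), with Benjamini-Hochberg adjustment over 37485 probes; the scripts were tested on simulated data. The median SE was 0.22, and the number of arrays limits the precision. Symbols were updated through Entrez IDs (30994 of 33325 probes matched). Related genes are given by their brightest kept probe; within a list, up to 3 that passed with the largest change and 2 with the smallest among the rest are named, and other genes named were chosen after their values were seen. For normexp the median spot signal was used, with an offset of 50 added to each corrected signal before log2. Alternatives covered scaling, background, filters, slide row, array weights, trended variance and each array left out. Members and lists were chosen with earlier results of these data known. Protein sequences were not used here. A further promoter motif was searched and is not reported here.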

Additional observations from a re-analysis of the deposited data

Results flagged for a closer look

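On the sham arrays, Incenp probe A_55_P2028054 read 8.57 on replicate 3 and 9.23 to 9.33 on the other 3. The gap below the nearest array was 0.868 of the whole range, above Dixon's critical value for 4 arrays. On the overlapping probe A_55_P1978201 the same array read 9.37, the highest of its group. Chance gives such a gap in about 1 in 20 groups, and 16 groups were looked at.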

How the results depend on the processing

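Every tested complex probe was higher after pancreatectomy in every alternative run. Against 5 complex probes that rose, 2 did so with no scaling, normexp, or 1 brightest probe per gene, 3 with a filter on all arrays, 0 in slide row 1 alone or row 2 alone, and 1 to 6 with 1 array left out (1 without pancreatectomy replicate 4, 3 without sham replicate 2). The brightest-probe setting and the filter on all arrays tested fewer complex probes. No called probe that they still tested lost its call. A replicate block for slide row left 4, while array weights gave 7 and a trended variance 6. Over all probes 195 rose and 31 fell. No scaling gave 40 and 0, normexp 53 and 6, no filter 72 and 5, the row block 119 and 11, array weights 596 and 723, each row alone 0 and 0 (2493 and 1136 at unadjusted p under 0.05 by limma), and leaving out 1 array 58 to 185 and 4 to 33. The filter on all arrays gave 106 risen, median scaling 53 fallen and a trended variance 55 fallen. Added after the values were seen, pancreatectomy replicates 2 and 4 against all sham arrays gave 15 risen, 1 fallen and 0 complex probes risen. The planned comparison on arrays where liver, gut and B-cell transcripts did not stand out set pancreatectomy replicate 2 against sham replicates 1 to 3. These arrays are not free of such transcripts, since Alb was well above background on 6 of all 8 arrays. With 1 array in a group only changes are given. They were 3.25 for Birc5 A_55_P1983773, 2.36 for Cdca8 A_51_P155142 and 0.78 for Incenp A_55_P1978201. Birc5 A_55_P1983773 kept its call with each array left out. Differences between probes turned under normexp, to 0.058 for Incenp, 0.39 for Birc5 A_55_P1983768 against A_55_P1983769 and -1.88 for A_55_P1983769 against A_55_P1983773, while the Cdca8 probes differed by 1.27. Normexp here adds 50 to every signal, which shrinks log2 changes most on dim probes. How far this accounts for these differences, and the causes of the other shifts, were not tested. Dim probes (Aurkb, A_55_P1983769, A_55_P2170681) are limited by signal over background.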
